A study of Mus musculus with 12 samples.

Results

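The DNA replication fork and origin machinery was followed in mouse liver as 41 genes listed by function: the sliding clamp and its loaders, primase and the replicative polymerases, the partners of the MCM helicase, the origin recognition complex, the kinase that fires origins, the enzymes that finish Okazaki fragments, the single-strand binding protein RPA, and factors that restore chromatin and DNA methylation behind the fork. A gene was read from a probe set that the platform annotation gives to it alone and, where there were several, from the one with the highest mean log2 signal over the 12 arrays. No difference between groups entered this choice. Such a probe set existed for 40 of the 41 genes, out of 18193 genes in all. The signal of Chaf1a was not analysed here. Of the 40, 36 rose above the median of their array on at least 2 of the 12 arrays and were tested among 14102 genes. Dscc1, Pola2, Pole and Orc6 did not pass this filter on low signals and are described by their signals.

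Every mouse was female, 8 to 12 weeks old and homozygous for floxed Yap1, the gene for the transcriptional co-activator YAP. Adeno-associated virus AAV8 delivered either Cre, which removes the floxed gene (KO), or eGFP (WT), behind TBG, a promoter active in hepatocytes, so other liver cells keep Yap1. TCPOBOP, which activates the nuclear receptor CAR and drives hepatocytes into division, was gavaged at 3 mg/kg 10 days after the virus, and day 0 mice received the virus and no TCPOBOP. Each genotype has 2 arrays of liver RNA from day 0, a single array of pooled RNA from day 1, and 3 arrays from day 2. The labels do not say that each day 0 and day 2 array is a separate animal, so p-values measure the spread between these samples, which may be technical. All mice carried the floxed alleles and a virus. No group at day 1 or 2 went without TCPOBOP, so the passage of days and the drug cannot be told apart. Only KO mice received Cre and only WT mice eGFP, so loss of Yap1 and the presence of Cre cannot be told apart either.

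DNA replication starts at origins bound by the origin recognition complex, where MCM helicases are loaded and later activated by the DDK kinase together with Cdc45 and the GINS complex. At the fork, polymerase alpha and primase lay down primers, the clamp loader places the PCNA ring, polymerases delta and epsilon copy the strands, RPA coats exposed single strands, and Fen1 and Lig1 finish the Okazaki fragments. Adult liver holds few dividing hepatocytes, and many genes of this machinery are activated by E2F factors when cells enter S phase.

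Yap1 checked the labels. Its signal, in units of the authors' array scaling, was 1234 and 1293 on the WT day 0 arrays, 999 on the day 1 pool and 1239.9, 1059.6 and 1306 on the day 2 arrays. In KO it was 632 and 596 at day 0, 449.6 in the pool, and then 572, 539 and 797 at day 2. Every KO array lay below every WT array. Array medians ranged from 231.6 to 277 units. Over all genes, the median difference was -0.11 from day 0 to day 2 in WT and 0.09 between KO and WT at day 2 on the log2 scale. Centring the arrays on their medians changed the split of all calls from 1024 higher and 758 lower to 1257 and 395 in WT. For KO against WT at day 2 it changed the split from 563 and 737 to 233 and 1366. Member medians are therefore given beside the median of all genes, while values and calls of single members are as deposited unless another scaling is named. Between KO and WT at day 2 the all-gene median also depended on mean log2 signal. It was 0.21 up to 8, 0.19 from 8 to 10, -0.06 from 10 to 12, -0.21 from 12 to 14 and -0.41 above 14. Hepatocyte markers were present, with a summed signal of 6 of 6 markers between 342480 and 390337 in WT and between 197085 and 254521 in KO at day 2, and 3 of them were called lower in KO. From day 0 to day 2, 5 of the 6 were called lower and 0 higher in KO, where the sum at day 0 was 333691 to 394932. Over the same days 2 were called higher and 1 lower in WT, where it was 291663 to 292404, and for 3 the change was called lower in KO than in WT. Some markers of other cells that could divide were called too. Among all genes, 9.22% were called between the genotypes at day 2. From day 0 to day 2, 12.6% of all genes were called in WT and 8.69% in KO. The summed signal of 6 lymphocyte markers, 4 of them tested, was 2696 to 3941 in WT and 4007 to 4756 in KO at day 2, with 0 called between the genotypes, 1 called higher from day 0 to day 2 in KO and 1 called lower in WT. That of 6 Kupffer cell markers was 11089 to 11626 and 8005 to 11461, with 1 called lower in KO than in WT and 1 lower from day 0 to day 2 in KO. Among the other cells, 1 of 6 sinusoidal endothelial markers was called higher in KO at day 2. Between the genotypes 0 of 5 tested stellate, 2 cholangiocyte, 2 neutrophil and 2 erythroid markers were called. Over the days, 1 endothelial and 2 stellate markers were called lower in WT, and 2 stellate and 1 erythroid markers lower in KO. Some listed markers, such as Cd3d at 13.9 to 53.8 units, stayed under every array median. The part of these cells in the results below was not tested. In whole liver, fewer cells of a type and less RNA per cell cannot be told apart.

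Promoter sequences were matched by symbol for 33 of the 41 genes, from RefSeq on the mouse build GRCm38.p6, as 44 windows of 250 bases before to 50 after a start, since 8 genes have several starts. Dscc1, Gins1, Gins2, Gins4, Pole, Prim2, Rfc2 and Tipin had no entry. An E2F word (TTTCCCGC, TTTCGCGC, TTTGCCGC or TTTGGCGC, on either strand) stood in 11 of these 44 windows (25.0%), against 744 of 32851 windows of all genes (2.26%). The 11 windows belong to 11 genes, and none of their 13 words overlapped a CCAAT or CHR word. CCAAT stood in 21 of the 44 windows (47.7%, against 37.4% of all), and the CHR words TTTGAA and TTTAAA in 11 (25.0%, against 27.6%). The E2F words stood in 3 of 12 windows (25.0%) of the genes called higher at day 2 in WT and in 8 of 29 (27.6%) of the genes tested and not called. CCAAT stood in 9 of the 12 (75.0%) and 10 of the 29 (34.5%); these shares are descriptions of few genes. Calls here are those of the probe set of highest mean signal. Fen1, Rfc3 and Rpa2 count as not called, though a dimmer probe set of each was called higher in WT. A match is not a bound site.

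The 250 bases upstream of the start are printed 5′ to 3′ on the gene's strand, with an E2F word in capitals, first for the 3 genes called higher in WT that hold one: Dnmt1 (chr9:20952624-20952873, minus strand), Pola1 (chrX:93632156-93632405, minus strand) and Uhrf1 (chr17:56304063-56304312, plus strand).
Dnmt1: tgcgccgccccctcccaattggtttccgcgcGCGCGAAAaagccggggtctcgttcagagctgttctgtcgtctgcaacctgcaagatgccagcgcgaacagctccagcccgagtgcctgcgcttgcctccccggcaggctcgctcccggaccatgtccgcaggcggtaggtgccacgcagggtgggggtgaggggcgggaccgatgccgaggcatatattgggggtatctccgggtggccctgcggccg
Pola1: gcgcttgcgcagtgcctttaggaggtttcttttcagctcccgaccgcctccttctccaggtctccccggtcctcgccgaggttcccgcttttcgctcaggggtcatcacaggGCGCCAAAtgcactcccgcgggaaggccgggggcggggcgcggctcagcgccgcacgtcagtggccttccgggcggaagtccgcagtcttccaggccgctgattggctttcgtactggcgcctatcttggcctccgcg
Uhrf1: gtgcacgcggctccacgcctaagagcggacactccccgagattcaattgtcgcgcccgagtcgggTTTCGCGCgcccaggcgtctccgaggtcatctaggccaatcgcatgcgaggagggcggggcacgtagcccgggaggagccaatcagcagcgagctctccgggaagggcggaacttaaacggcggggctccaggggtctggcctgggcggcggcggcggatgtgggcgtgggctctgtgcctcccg

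The same words stand upstream of genes not called in WT on their probe set of highest mean signal: Rfc3 (chr5:151651209-151651458, minus strand), Orc1 (chr4:108579204-108579453, plus strand) and Gins3 (chr8:95633309-95633558, plus strand). On its dimmer probe set Rfc3 was called higher in WT, with a difference of 3.15 ± 0.68 (SE) on the log2 scale.
Rfc3: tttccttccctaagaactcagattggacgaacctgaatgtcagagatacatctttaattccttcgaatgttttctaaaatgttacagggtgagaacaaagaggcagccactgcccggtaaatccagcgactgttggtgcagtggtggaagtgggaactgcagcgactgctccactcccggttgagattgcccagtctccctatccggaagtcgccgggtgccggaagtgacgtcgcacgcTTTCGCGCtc
Orc1: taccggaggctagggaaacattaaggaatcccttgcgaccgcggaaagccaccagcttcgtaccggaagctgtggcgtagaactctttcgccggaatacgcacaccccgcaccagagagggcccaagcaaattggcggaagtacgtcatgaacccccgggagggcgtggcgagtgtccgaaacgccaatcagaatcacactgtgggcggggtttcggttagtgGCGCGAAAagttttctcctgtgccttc
Gins3: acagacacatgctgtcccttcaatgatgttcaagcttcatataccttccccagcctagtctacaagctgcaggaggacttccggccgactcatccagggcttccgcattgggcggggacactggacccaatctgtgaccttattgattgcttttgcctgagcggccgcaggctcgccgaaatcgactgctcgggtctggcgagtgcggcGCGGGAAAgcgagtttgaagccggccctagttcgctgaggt

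The 2 members with the smallest adjusted p between the genotypes at day 2, Pcna (chr2:132253181-132253430, minus strand) and Rpa1 (chr11:75348384-75348633, minus strand), hold none of the E2F words in their windows, and the capitals mark CCAAT or its reverse complement.
Pcna: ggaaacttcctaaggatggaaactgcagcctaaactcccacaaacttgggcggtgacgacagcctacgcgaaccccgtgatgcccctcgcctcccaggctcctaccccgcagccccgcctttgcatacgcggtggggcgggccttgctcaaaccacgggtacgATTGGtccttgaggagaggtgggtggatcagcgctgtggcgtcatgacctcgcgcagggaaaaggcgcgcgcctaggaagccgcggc
Rpa1: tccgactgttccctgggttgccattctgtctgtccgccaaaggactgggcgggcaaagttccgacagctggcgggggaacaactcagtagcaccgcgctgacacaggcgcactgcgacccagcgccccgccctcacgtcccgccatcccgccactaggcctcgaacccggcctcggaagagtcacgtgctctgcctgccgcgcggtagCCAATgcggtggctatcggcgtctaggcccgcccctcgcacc

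From day 0 to day 2 in WT, 12 members rose and 0 fell (limma on log2 of signal plus 16, Benjamini-Hochberg adjusted p under 0.05 over all 14102 genes): Pcna, Pola1, Prim1, Gins1, Gins2, Dbf4, Rpa1, Rpa3, Chaf1b, Tipin, Uhrf1 and Dnmt1. Among all genes, 12.6% were called, 7.26% higher and 5.38% lower. All 3 day 2 arrays lay above both day 0 arrays for 20 members and below them for 2 (19.2% and 25.9% of all genes). Without the filter, which a low gene can pass through the arrays where it is high, 12 of all 40 members were called higher against 5.18% of 18193 genes (8.65% called in either direction, 3.47% lower), and the median member difference was 0.61 against -0.10 over all genes.

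In KO over the same days, Pcna and Prim1 rose and 0 members fell, where 8.69% of all genes were called, 4.2% higher and 4.49% lower. The KO day 2 arrays lay above the day 0 arrays for 12 members and below for 3 (22.6% and 17.8% of all genes). The median over the 40 members without the filter was 0.22, against 0.04 over all genes.

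At day 2, 7 members were lower in KO than in WT and 0 were higher: Pcna, Rfc5, Gins1, Gins2, Rpa1, Rpa3 and Dnmt1. Among all genes, 9.22% were called, 5.23% lower and 3.99% higher. KO arrays lay below all WT arrays for 15 members and above them for 2 (16.1% and 20.1% of all genes). Without the filter, 6 of all 40 members were called lower and 0 higher, against 640 lower and 449 higher of 18193 genes. Dnmt1 was the call lost (adjusted p = 0.053). The median over the 40 members without the filter was -0.40, against 0.09 over all genes. This comparison and the change in WT share the WT day 2 arrays, so the values of each are given side by side below and an overlap of their calls is not read as a result.

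**Figure D1:**
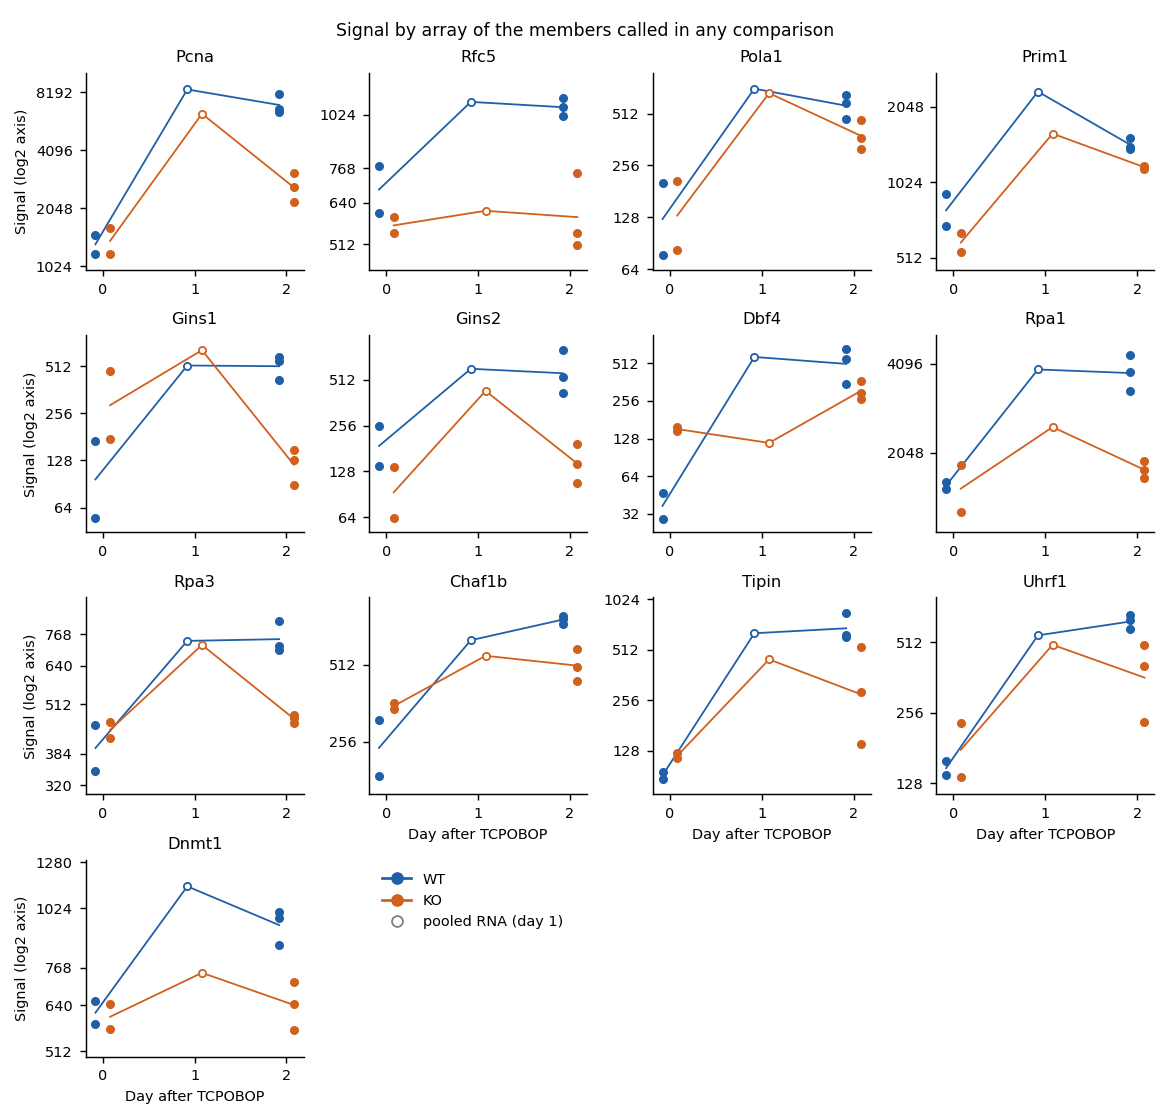
Signal on each array (log2 axis, in units of the authors' scaling) against the day after TCPOBOP, for the 13 members called in any comparison. Filled points are arrays, open points the pooled day 1 arrays, and lines join group means of log2 signal. Pcna stands between 6441 and 8018 in WT and between 2213 and 3125 in KO at day 2.

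Pcna encodes the sliding clamp that holds polymerases on DNA. WT arrays measured 1489 and 1192 units at day 0, 8468 at day 1 and then 6738, 6441 and 8018 at day 2. KO arrays measured 1626 and 1185 at day 0, 6331 in the day 1 pool, and then 3125, 2626 and 2213 at day 2. Day 2 lay above day 0 in both genotypes, and the KO day 2 arrays lay between the 2 ranges of WT without touching either. The change was 2.39 ± 0.19 (SE) in WT (5.23-fold, adjusted p = 9.99e-06) and 0.91 ± 0.19 (SE) in KO (1.88-fold, adjusted p = 0.00958); folds here and below are on the scale of signal plus 16, which understates changes of low genes. KO was 2.67-fold lower than WT at day 2 (-1.41 ± 0.17 (SE), adjusted p = 0.00166). The call in KO was lost without KO day 0 replicate 2 (0.69, adjusted p = 0.0693).

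The clamp loader, a complex of 1 large and 4 small subunits that opens and closes the PCNA ring, had 1 called subunit, Rfc5. Rfc5, a small subunit, measured 777 and 605 at day 0 and 1017, 1066 and 1118 at day 2 in WT, and 591 and 542 and then 749, 543 and 509.5 in KO. All WT day 2 arrays exceeded all other day 0 and day 2 arrays of Rfc5. It was 1.78-fold lower in KO than in WT at day 2 (-0.83 ± 0.17 (SE), adjusted p = 0.0153), while its change in WT missed the threshold (0.62 ± 0.19 (SE), adjusted p = 0.0562) and passed with centred arrays (0.75, adjusted p = 0.0426) and cyclic loess (0.71, adjusted p = 0.0316). After quantile normalization the WT change did not pass. The call between genotypes was lost without WT day 2 replicate 3, KO day 2 replicate 2 or KO day 2 replicate 3 (-0.80 to -0.73, adjusted p 0.0539 to 0.0669). Rfc1, the large subunit, measured 426 and 377 and then 410.5, 314 and 363 in WT, and 385 and 524 and then 242, 227 and 279.6 in KO. Its KO day 2 arrays lay below every other array, and its difference in KO did not pass as deposited (-0.82 ± 0.25 (SE), adjusted p = 0.0696) but did after quantile normalization (-0.89, adjusted p = 0.0433) and cyclic loess (-0.91, adjusted p = 0.0427). With centred arrays the KO difference of Rfc1 did not pass. On their brightest probe sets and as deposited, the other small subunits, Rfc2, Rfc3 and Rfc4, were not called in any comparison, with WT differences between 0.69 and 0.86. Rfc2 was called in WT when only the arrays compared were fitted (adjusted p = 0.0128), and Rfc3 with the mean of its probe sets (1.92, adjusted p = 0.00939). Dscc1, of an alternative loader, stayed between 82.6 and 294 on all arrays and did not pass the filter.

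**Figure D2:**
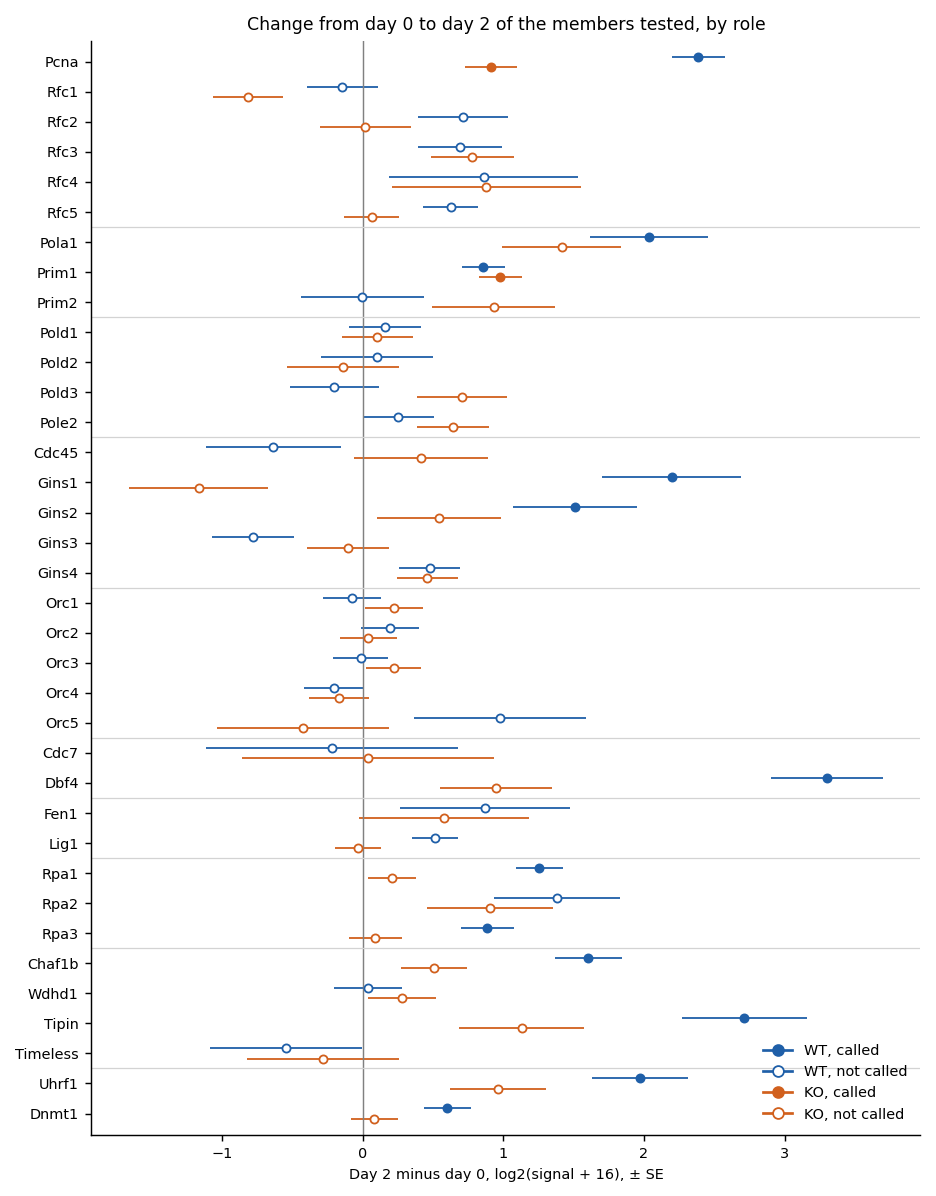
Difference between day 2 and day 0 in log2 of signal plus 16, with its standard error, for the 36 members tested, in the order of their roles separated by grey lines; WT is blue, KO orange, and filled points passed an adjusted p under 0.05. The 5 tested subunits of the origin recognition complex and the 4 tested subunits of polymerases delta and epsilon have open points only, and 12 WT and 2 KO points are filled.

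Primase and polymerase alpha start each new strand with a short primer; Prim1 rose in both genotypes and Pola1 in WT. Prim1, the catalytic primase subunit, measured 684 and 918 at day 0 and 1422, 1397 and 1535 at day 2 in WT, and 541 and 642 and then 1157, 1196 and 1177 in KO. Day 2 arrays lay above day 0 arrays in both genotypes. Prim1 rose 1.81-fold in WT (0.86 ± 0.15 (SE), adjusted p = 0.00338) and 1.97-fold in KO (0.98 ± 0.15 (SE), adjusted p = 0.00215). The difference between these changes was 0.12 ± 0.22 (SE) (adjusted p = 0.787), which does not show that the changes were equal. The WT call was lost without WT day 0 replicate 1 (0.65, adjusted p = 0.0539).

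Pola1, the catalytic subunit of polymerase alpha, measured 202 and 77.5 at day 0 and 474, 652 and 593 at day 2 in WT. The KO arrays gave 82.4 and 208 and then 468, 319 and 368. Every day 2 array exceeded every day 0 array, and the KO day 2 arrays lay below the WT ones, the nearest pair by little. It rose 4.1-fold in WT (2.03 ± 0.42 (SE), adjusted p = 0.00808), a call lost without WT day 0 replicate 2 (1.43, adjusted p = 0.101) and with the mean of its probe sets (0.89, adjusted p = 0.0879). Its difference in KO was 1.42 ± 0.42 (SE) (adjusted p = 0.0618). That difference was 0.82 without KO day 0 replicate 1 and 2.01 without replicate 2. Prim2, the second primase subunit, measured 614 and 488 and then 477, 549.9 and 621 in WT, and 144 and 556 and then 550.2, 794 and 402 in KO, where the first day 0 array stood apart as the lowest of all 12. Its KO difference was 0.93 ± 0.44 (SE) (adjusted p = 0.235) and depended on that array. It was 0.01 without KO day 0 replicate 1, the low array, and 1.85 without replicate 2. Pola2, the accessory subunit of polymerase alpha, lay between 102 and 256 on all arrays and did not pass the filter.

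Polymerases delta and epsilon copy the bulk of the genome, and their tested subunits were not called in any comparison. Differences of the 4 tested subunits (Pold1, Pold2, Pold3 and Pole2) ran from -0.20 to 0.25 in WT, from -0.14 to 0.70 in KO and from -0.48 to 0.77 between KO and WT at day 2. Pold2, with the smallest WT difference of the 4, measured 537 and 594 at day 0 and 488, 536 and 846 at day 2 in WT, and 643 and 351 and then 648, 527 and 232 in KO. Its groups overlapped throughout. For Pold3, a subunit of polymerase delta, the direction depended on the probe set: beside the -0.20 in WT and 0.77 between genotypes of the brightest one, the other 2 gave 1.60 (adjusted p = 0.0636) and 0.83 (adjusted p = 0.372) in WT. Between genotypes at day 2 they gave -1.52 (adjusted p = 0.0615) and -0.65 (adjusted p = 0.417). Pole, the catalytic subunit of polymerase epsilon, lay between 19.7 and 103 on all arrays and did not pass the filter.

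Of the helicase partners, Gins1 and Gins2 rose in WT and were lower in KO at day 2, while Cdc45, Gins3 and Gins4 were not called. Gins1 measured 169.7 and 55.3 at day 0 and 582, 553 and 416 at day 2 in WT. KO signals were 175 and 474 and then 150.2, 129 and 89.5. In the day 1 pools it measured 517 in WT and 648 in KO, above both day 0 arrays of each genotype. From day 0 to day 2 the KO arrays ran the other way from the WT ones. Both KO day 0 arrays lay above all KO day 2 arrays, as for 17.8% of all genes. The change was 2.20 ± 0.49 (SE) in WT (adjusted p = 0.0127), with no fold given since 1 day 0 signal was under 64 units, and -1.17 ± 0.49 (SE) in KO (adjusted p = 0.184). Without KO day 0 replicate 2 the KO difference was -0.49. At day 2 Gins1 was 3.87-fold lower in KO (-1.95 ± 0.44 (SE), adjusted p = 0.0215). Its WT call was lost without WT day 0 replicate 2 (1.51, adjusted p = 0.142), and its call between genotypes without WT day 2 replicate 1 or 2 or KO day 2 replicate 2 or 3 (-1.99 to -1.76, adjusted p 0.0567 to 0.0757).

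Gins2 measured 139.7 and 253 at day 0 and 535, 421 and 804 at day 2 in WT, and 137 and 63.6 and then 144, 108 and 193 in KO. The 3 WT day 2 arrays stood above all others but the day 1 arrays. It rose 2.84-fold in WT (1.51 ± 0.44 (SE), adjusted p = 0.0447) and was 3.63-fold lower in KO than in WT at day 2 (-1.86 ± 0.39 (SE), adjusted p = 0.0164). The WT call lay close to the threshold: it was lost without either WT day 0 array or without WT day 2 replicate 1 or 3 (1.11 to 1.90, adjusted p 0.075 to 0.284), with a pseudocount of 1 (adjusted p = 0.0528), without the filter (adjusted p = 0.0578) and without the day 1 arrays (adjusted p = 0.0576). The call between genotypes was lost without WT day 2 replicate 3 or KO day 2 replicate 2 (-1.67 to -1.61, adjusted p 0.0664 to 0.069). The second probe set of Gins2 did not make it (-0.78 ± 0.42 (SE), adjusted p = 0.256), but it was called higher in WT (1.80 ± 0.47 (SE), adjusted p = 0.0305). Gins4, with the smallest WT difference of this group, measured 568 and 621 and then 687, 786 and 1064 in WT, and 484 and 530.2 and then 780.3, 790.4 and 562 in KO, with day 2 above day 0 in both genotypes and no call. Gins3 was the member with the lowest WT difference (-0.78 ± 0.29 (SE), adjusted p = 0.104), and it passed as lower without WT day 2 replicate 2 (-1.08, adjusted p = 0.016). The 4 GINS subunits form 1 complex, and their WT differences spanned -0.78 to 2.20.

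The origin recognition complex, which marks origins, showed no called member. WT differences of the 5 tested subunits ran from -0.21 for Orc4 to 0.98 for Orc5, and differences between the genotypes at day 2 from -0.21 to 0.40. Orc3, with the smallest WT difference, measured 795 and 773 at day 0 and 888, 791 and 664 at day 2 in WT, and 683 and 481 and then 714, 629 and 669.6 in KO. Orc6 did not pass the filter, and its WT signals were 18.9 and 15.2 before TCPOBOP, 254 in the day 1 pool and then 166, 77.7 and 59.5. KO signals were 36.3 and 43.5 before TCPOBOP, 72.5 in the pool, and then 16.3, 44.3 and 17.5. It was singled out after its values were seen: the WT day 2 arrays lay above both day 0 arrays, and in the fit without a filter its WT difference was 1.72 ± 0.47 (SE, adjusted p = 0.0464) while its 3 signals lay under the range of the array medians.

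Dbf4, the activating subunit of the DDK kinase, had the largest WT change among the 36 members, and its partner Cdc7 did not pass. WT arrays of Dbf4 measured 46.8 and 29.1 units at day 0, 578 in the day 1 pool and then 669, 558 and 351. KO arrays measured 146 and 159 at day 0, 118 in the pool, and then 367, 299 and 268 at day 2. The day 0 arrays did not overlap, with KO above WT, while at day 2 the ranges overlapped. The change was 3.30 ± 0.40 (SE) in WT (adjusted p = 0.000231), with no fold given for a day 0 signal under 64 units, and 0.95 ± 0.40 (SE) in KO (adjusted p = 0.177). Cdc7, the catalytic subunit, measured 85.9 and 159.8 and then 140.0, 256 and 19.9 in WT, and 208 and 59.0 and then 90.6, 249.8 and 66.8 in KO, with overlapping groups in every comparison.

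Lig1, the ligase that seals Okazaki fragments, measured 887 and 813 at day 0 and 1146, 1264 and 1252 at day 2 in WT. The KO signals were 966 and 786 and then 718, 945 and 912. Its WT day 2 arrays exceeded all WT day 0 and KO arrays, but neither the WT difference (0.51 ± 0.16 (SE), adjusted p = 0.0612) nor that between genotypes at day 2 (-0.51 ± 0.15 (SE), adjusted p = 0.0508) passed. Both passed under 2 other scalings, with adjusted p = 0.0336 and 0.0174 after centring the arrays and 0.0480 and 0.0461 after cyclic loess. Neither passed after quantile normalization. Fen1, the flap nuclease that trims the fragments, was not called on its brighter probe set, where 1 of 3 day 2 arrays in each genotype stood apart: 589, 605 and 1742 in WT and 409, 1831 and 419 in KO. Its dimmer probe set, described further below, was called higher in WT (4.07) and in KO (2.17). On that probe set Fen1 was also called lower in KO than in WT at day 2 (-1.70).

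RPA is the heterotrimer that covers single-stranded DNA, and its large and small subunits rose in WT and were lower in KO than in WT at day 2. Rpa1, the large subunit, measured 1545 and 1622 at day 0 and 3826, 3295 and 4363 at day 2 in WT, and 1858 and 1286 and then 1910.1, 1783 and 1683 in KO. The WT day 2 arrays stood above all others at day 0 and day 2, while the KO day 2 arrays fell within the range of the 2 KO day 0 arrays or just above it. Rpa1 rose 2.39-fold in WT (1.26 ± 0.17 (SE), adjusted p = 0.000483), its difference in KO was 0.21 ± 0.17 (SE) (adjusted p = 0.515), and it was 2.12-fold lower in KO at day 2 (-1.08 ± 0.15 (SE), adjusted p = 0.00316). With Pcna it was 1 of 2 members whose call between genotypes at day 2 held without any 1 of the 6 day 2 arrays. Its second probe set measured 1264, 1230.2 and 1219 in WT and 852, 657 and 779 in KO at day 2, without overlap, but was not called between the genotypes (-0.69 ± 0.21 (SE), adjusted p = 0.0635) and was called higher in WT (1.11 ± 0.23 (SE), adjusted p = 0.00944).

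Rpa3, the small subunit, measured 453 and 348 at day 0 and 703, 716 and 829 at day 2 in WT. The KO arrays measured 422 and 462 and then 474, 480.1 and 459. The 3 KO day 2 arrays lay close together and below all WT day 2 arrays. It rose 1.85-fold in WT (0.88 ± 0.19 (SE), adjusted p = 0.00914), a call lost without WT day 0 replicate 2 (0.70, adjusted p = 0.106). At day 2 it was 1.57-fold lower in KO (-0.65 ± 0.17 (SE), adjusted p = 0.034), a call lost without any 1 of the 6 day 2 arrays (-0.69 to -0.57, adjusted p 0.0596 to 0.103). Rpa2, the middle subunit, had WT day 2 arrays (292, 299.9 and 491) above all KO day 2 arrays (124, 144 and 129), but the difference missed the threshold as deposited (-1.31 ± 0.40 (SE), adjusted p = 0.0615) and passed after quantile normalization (-1.45, adjusted p = 0.0464), as did its WT difference (adjusted p = 0.0444, against 1.38 ± 0.45 (SE) and adjusted p = 0.065 as deposited).

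**Figure D3:**
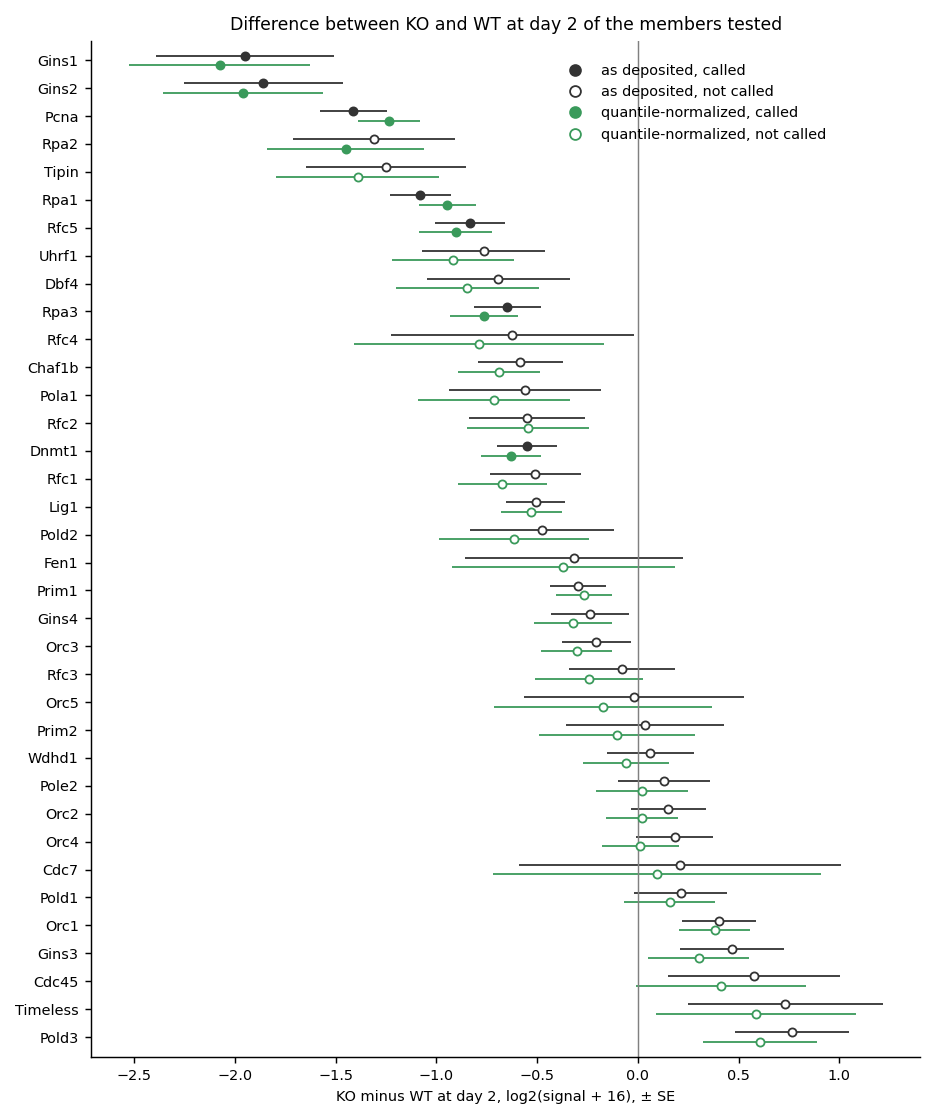
Difference between KO and WT at day 2 in log2 of signal plus 16, with its standard error, for the 36 members tested, ordered by the difference; black is the signal as deposited, green after quantile normalization, and filled points passed an adjusted p under 0.05. All 7 black filled points, from Gins1 at -1.95 to Dnmt1 at -0.55, are filled in green too, and Rpa2 is filled in green alone.

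Among the factors that protect the fork and rebuild chromatin, Tipin and Chaf1b rose in WT, and neither was called between the genotypes. Tipin, partner of Timeless in the complex that steadies stalled forks, measured 86.7 and 96.3 at day 0 and 609, 852 and 627 at day 2 in WT. In KO the signals were 124 and 115 and then 530.2, 287 and 141. The WT rise was 6.56-fold (2.71 ± 0.44 (SE), adjusted p = 0.00189); the KO day 2 arrays were spread widely, and neither the KO difference (1.13 ± 0.44 (SE), adjusted p = 0.152) nor that between genotypes (-1.25 ± 0.40 (SE), adjusted p = 0.0699) passed. Without KO day 2 replicate 3 the KO difference passed (1.59, adjusted p = 0.0292), and without KO day 2 replicate 1 that between genotypes did (-1.69, adjusted p = 0.0323). Chaf1b, a subunit of the histone chaperone CAF-1, measured 188 and 312 at day 0 and 739.6, 777 and 796 at day 2 in WT. KO arrays gave 363 and 344 and then 442, 592 and 504. It rose 3.04-fold in WT (1.60 ± 0.24 (SE), adjusted p = 0.000895). Its arrays did not overlap between genotypes at day 2, but the difference missed the threshold (-0.58 ± 0.21 (SE), adjusted p = 0.0996), and it passed with centred arrays (-0.76, adjusted p = 0.0357) and cyclic loess (-0.77, adjusted p = 0.0460). After quantile normalization the difference did not pass. Wdhd1, which links the helicase to polymerase alpha, measured 695 and 496 and then 746, 600.2 and 489.8 in WT, and 460.2 and 579.8 and then 637, 524 and 749.8 in KO, with overlapping groups. Timeless was not called either, with a WT difference of -0.54.

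In maintenance methylation, Uhrf1 recognizes hemimethylated DNA behind the fork and recruits the methyltransferase Dnmt1, and both genes rose in WT. Uhrf1 measured 139 and 159 at day 0 and 581, 669 and 638 at day 2 in WT. Its KO signals were 136 and 232 and then 501, 404 and 234. It rose 3.92-fold in WT (1.97 ± 0.34 (SE), adjusted p = 0.00269). KO day 2 arrays lay below all WT day 2 arrays but spread widely, and the difference was not called (-0.77 ± 0.30 (SE), adjusted p = 0.127); its difference in KO passed without KO day 2 replicate 3 (1.26, adjusted p = 0.0412). Dnmt1 measured 584 and 652 at day 0 and 857, 1006 and 975 at day 2 in WT. KO measured 569 and 642 and then 718, 568 and 645. Its rise in WT was 1.52-fold (0.60 ± 0.17 (SE), adjusted p = 0.0355), and it was 1.46-fold lower in KO at day 2 (-0.55 ± 0.15 (SE), adjusted p = 0.0421). Both calls were thin: the first was lost without either WT day 0 array or without WT day 2 replicate 2 or 3 (0.52 to 0.68, adjusted p 0.0838 to 0.204), and the second without any 1 of the 6 day 2 arrays (-0.63 to -0.46, adjusted p 0.0569 to 0.153).

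Before TCPOBOP, at day 0, 0 of the 36 members were called between KO and WT by limma, 3 had an unadjusted p under 0.05, and 0.17% of all genes were called, 0.0638% higher and 0.106% lower in KO. With 2 arrays a group, ranges did not overlap for 15 members, 7 with KO above and 8 with KO below WT (16.6% and 19% of all genes). Of the 3, Dbf4 had the highest difference (1.66 ± 0.43 (SE), adjusted p = 0.255), followed by Gins1 (1.41 ± 0.54 (SE), adjusted p = 0.512), and Prim1 was lower in KO (-0.42 ± 0.17 (SE), adjusted p = 0.553).

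The change from day 0 to day 2 was compared between the genotypes by the difference of the 2 changes, for which 3.15% of all genes were called, 2.06% lower and 1.08% higher in KO. Of the 36 members 4 were called, all with a lower change in KO. The difference was -1.47 ± 0.26 (SE) for Pcna (adjusted p = 0.019), -3.36 ± 0.70 (SE) for Gins1 (adjusted p = 0.0297), -1.05 ± 0.24 (SE) for Rpa1 (adjusted p = 0.0401) and -2.35 ± 0.56 (SE) for Dbf4 (adjusted p = 0.0459). For Dbf4 and Gins1 both KO day 0 arrays lay above both WT day 0 arrays. Each of these calls was lost when some single array was left out: Pcna without WT day 0 replicate 2 or KO day 2 replicate 2 (-1.47 to -1.31, adjusted p 0.0546 to 0.0826), Gins1 in 7 of 10 cases (-3.51 to -2.67, adjusted p 0.0544 to 0.102), Rpa1 in 8 (-1.09 to -0.78, adjusted p 0.0614 to 0.119) and Dbf4 in 9 (-2.59 to -2.12, adjusted p 0.0561 to 0.129). Of the 12 members called in WT, the other 8 had no called difference of change, so a call in WT alone does not show that the genotypes changed differently. Rpa1 was also lost after quantile normalization (-0.90, adjusted p = 0.0644) and Dbf4 with a pseudocount of 64 (-1.71, adjusted p = 0.0576), and 0 of the 4 passed by eBayes without trend and robust.

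Day 1 was 1 array of pooled RNA per genotype, so its values carry no test and no SD. In WT, 32 of the 36 members (88.9%) stood above both day 0 arrays at day 1, against 33.8% of all genes, and in KO 25 (69.4%), against 31.1%. The day 1 level was at least 2-fold over the day 0 mean for 14 members in WT (38.9%, against 6.35% of all genes) and 11 in KO (30.6%, against 6.11%). Pcna in KO stood 2.18 above its day 0 mean at day 1, on the log2 scale, and moved by -1.26 from day 1 to day 2, while in WT it stood 2.65 above and then moved by -0.27. Gins1 in KO moved by -2.28 from day 1 to day 2, and by -0.01 in WT. Of the 12 members called in WT at day 2, 11 stood above both KO day 0 arrays in the KO day 1 pool, with Dbf4 as the exception (118 units, -0.33 from its day 0 mean). Over all 36 members, 17 (47.2%) stood above all 3 day 2 arrays at day 1 in each genotype, against 28.6% of all genes in WT and 29.4% in KO. The median step from day 1 to day 2 was -0.26 in WT and -0.23 in KO, against -0.02 and 0.08 over all genes. At day 1 itself KO stood below WT for 29 of the 36 members (80.6%, against 50.8% of all genes), with a median of -0.34 against -0.01 over all genes.

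Several members have more than 1 probe set, and these did not always give the same call. Of 16 members with at least 2 probe sets past the filter, 9 had the same sign on all of them for the WT change and 12 for KO against WT at day 2, and calls differed between probe sets for 5 and 5, with p-values adjusted over all probe sets kept. Some calls of the members were made by the brightest probe set alone: Pola1 and Uhrf1 in WT, Prim1 in KO, Gins2 and Rpa1 between the genotypes at day 2, and Rpa1 in the difference of changes. The dimmer probe set of Uhrf1 gave 1.57 ± 0.80 (SE), adjusted p = 0.243 in WT. That of Prim1 gave 0.89 ± 0.36 (SE), adjusted p = 0.172 in KO. For the difference of changes, that of Rpa1 gave -0.68 ± 0.33 (SE), adjusted p = 0.282. Calls by a dimmer probe set alone were those of Fen1, Rfc3 and Rpa2 in WT, Fen1 in KO, and Fen1, Rpa2 and Pola1 between the genotypes. These 4 genes are described further, chosen after their values were seen. The dimmer probe set of Fen1 measured 14.7 and 33.2 at day 0 and 488, 629 and 841 at day 2 in WT, and 30.9 and 26.4 and then 171, 181 and 203 in KO. There Fen1 was called higher in WT (4.07 ± 0.47 (SE), adjusted p = 0.000173) and in KO (2.17 ± 0.47 (SE), adjusted p = 0.015) and lower in KO than in WT at day 2 (-1.70 ± 0.42 (SE), adjusted p = 0.0309). Rpa2's dimmer probe set measured 84.5 and 44.9 and then 344, 474 and 469 in WT, and 40.2 and 30.9 and then 92.7, 107 and 137 in KO, and was called in WT (2.49 ± 0.47 (SE), adjusted p = 0.00516) and between KO and WT at day 2 (-1.79 ± 0.42 (SE), adjusted p = 0.0268). Rfc3's measured 17.5 and 45.2 and then 523, 259.5 and 417 in WT and was called higher there (3.15 ± 0.68 (SE), adjusted p = 0.0113). Pola1's went the other way from its brighter one: KO measured 405, 430.2 and 402 at day 2 against 182, 189 and 203 in WT (1.05 ± 0.26 (SE), adjusted p = 0.0329). Which transcript part each probe set reads was not examined.

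**Figure D4:**
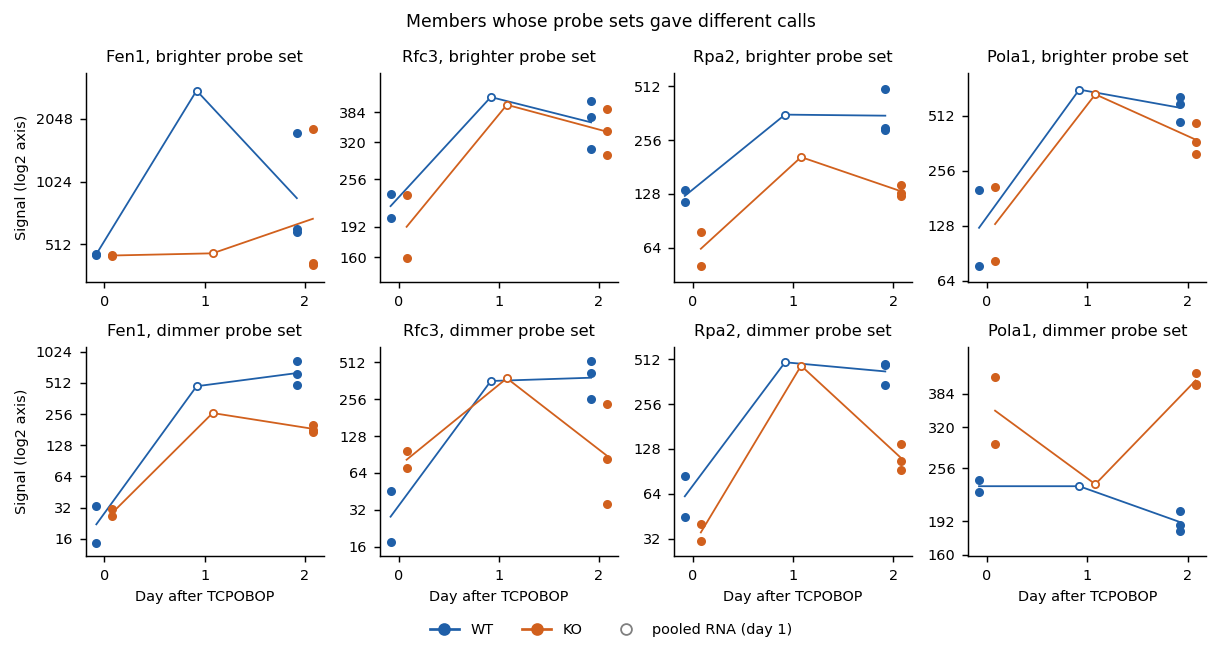
Signal on each array (log2 axis, units of the authors' scaling) against the day after TCPOBOP for the brighter (top row) and the dimmer (bottom row) probe set of Fen1, Rfc3, Rpa2 and Pola1. Points are arrays, open points pooled day 1 arrays, and lines join group means of log2 signal. In Fen1 the dimmer set separates day 0 (14.7 to 33.2 units) from day 2 (171 to 841 units) while 4 of 6 arrays of the brighter set stay between 409 and 605 at day 2, and in Pola1 the genotypes change places between the rows.

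Other genes of replication outside the 41 were counted for context. Of 38 listed, 35 were tested. In WT 15 rose and 1 fell, and in KO 11 rose and 0 fell. At day 2, 8 were lower and 0 higher in KO than in WT. At day 0, 2 were lower and 0 higher in KO (0.106% and 0.0638% of all genes). For the difference of changes, 1 was lower and 2 were higher in KO (2.06% and 1.08% of all genes). Among all genes, 7.26% rose and 5.38% fell in WT, and 4.2% rose and 4.49% fell in KO. At day 2, 5.23% of all genes were lower and 3.99% higher in KO than in WT. Licensing factors, which load and regulate the MCM helicase, rose for 6 of 9 in each genotype. Mcm10 was lower in WT, and 1 factor was lower in KO than in WT at day 2. Genes of nucleotide supply rose for 4 of 6 in WT and 3 in KO, and 2 were lower in KO at day 2; other fork and firing factors rose for 5 of 20 in WT and 2 in KO, and 5 were lower. The largest WT changes were those of the helicase subunit Mcm6 (4.95 ± 0.71 (SE), adjusted p = 0.000753), the ribonucleotide reductase subunit Rrm2 (3.43 ± 0.20 (SE), adjusted p = 1.52e-06), Mcm2 (2.16 ± 0.26 (SE), adjusted p = 0.000243) and Mcm7 (2.03 ± 0.14 (SE), adjusted p = 5.05e-06). In KO those 4 differed by 3.07, 2.40, 2.32 and 0.83, with adjusted p = 0.0193, 3.52e-05, 0.000206 and 0.00304. Of 6 proliferation markers, 5 rose in WT, 4 rose in KO and 3 were lower in KO at day 2. At day 0, 1 of them was higher in KO, and for the difference of changes 2 were lower in KO.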

How the data were processed

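The authors deposited MAS5 signal intensities, per the submitters' processing notes (no version given), scaled so that each array has the same trimmed mean (499.9 between the 2nd and the 98th percentile). The platform annotation assigns 34945 of 45101 probe sets to 1 gene, 932 to several and 9160 to none; 64 are controls. Low probe sets were left out (kept: above the array's own median on 2 or more of the 12 arrays), and the kept probe set of highest mean stood for its gene. The test was limma 3.58.1 (R 4.3.3) on log2(value + 16), with 6 group means fitted to 12 arrays, leaving 6 residual degrees of freedom, and eBayes moderated with trend and robust. Tests were two-sided and p-values were adjusted (Benjamini-Hochberg) over 14102 genes per comparison. Arrays have no sequencing depth; their number limits the precision. The fit was tested on simulated data. Members, lists and the rule for named genes were chosen with earlier results of these data known. The rule gives every array for Pcna, for members called between genotypes or in the difference of changes, and in each role for up to 3 called members with the largest WT change and the 1 with the smallest; Rpa2, Fen1, Gins3, Orc6, Pold3 and second probe sets were added after their values were seen. Alternatives covered normalization, pseudocount, filter, probe set rule, eBayes settings, array subsets, replicate block, threshold and each array left out; a fit without day 1 was added after seeing the data. Tables and figures used pandas 2.3.3 and matplotlib 3.10.9.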

Additional observations from a re-analysis of the deposited data

Results flagged for a closer look

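For 4 members the change from day 0 to day 2 differed between KO and WT by a test of the difference itself (limma, adjusted p over 14102 genes). The difference, KO minus WT on the log2 scale, was -1.47 ± 0.26 (SE) for Pcna (adjusted p = 0.019), -3.36 ± 0.70 (SE) for Gins1 (adjusted p = 0.0297), -1.05 ± 0.24 (SE) for Rpa1 (adjusted p = 0.0401) and -2.35 ± 0.56 (SE) for Dbf4 (adjusted p = 0.0459). Pcna rose in both genotypes. Gins1, Rpa1 and Dbf4 rose in WT and were not called in KO. In KO both day 0 arrays of Gins1 lay above all its day 2 arrays, as for 17.8% of all genes, and its day 1 pool lay above both. For Dbf4 both KO day 0 arrays lay above both WT day 0 arrays, and the day 2 ranges overlapped. Each of the 4 calls was lost without KO day 2 replicate 2.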

How the results depend on the processing

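The 12 members called in WT became 8 to 12 when 1 array at a time was left out (8 without WT day 0 replicate 2) and 9 to 15 under the other alternatives. The 2 called in KO became 2 to 4 without 1 array (4 without KO day 2 replicate 3), and 4 at an adjusted p under 0.1. The 7 called lower in KO at day 2 became 2 to 6 without 1 array (2 without KO day 2 replicate 2, 3 without WT day 2 replicate 3 or KO day 2 replicate 3, 4 without WT day 2 replicate 1 or 2), 12 with centred arrays, 11 with cyclic loess, 2 at an adjusted p under 0.01 and 11 under 0.1. The 4 called for the difference of changes became 0 to 3 without 1 array (0 without WT day 0 replicate 2 or KO day 2 replicate 2), 2 without the filter, 0 by eBayes without trend and robust, 1 with the replicate block and 0 at an adjusted p under 0.01. The count at day 0 was 0 under every alternative run. Same-numbered WT and KO arrays did not deviate together (r = -0.01 at day 0, between 0.004 and 0.03 at day 2), so the numbers were not taken as pairs; the replicate block gave 10 calls in WT, 2 in KO, 5 between genotypes at day 2 and 0 at day 0, and the WT call of Gins2 was among those lost (1.29, adjusted p = 0.128). Calls over all genes moved as well. For KO against WT at day 2 they were 563 higher and 737 lower, and 107 and 301 without KO day 2 replicate 2. With centred arrays they were 233 and 1366. For the difference of changes they were 153 higher and 291 lower, and 16 and 73 without KO day 2 replicate 2. By eBayes without trend and robust they were 35 and 41. The cause of these moves was not tested, except that stricter or looser thresholds act by construction. All 25 calls of members kept their sign under the normalizations tried, and 24, 25 and 24 stayed past the threshold with quantile normalization, centred arrays and cyclic loess. With the mean of a gene's probe sets, Pold3 changed sign between genotypes at day 2 (-0.47, from 0.77) and in the difference of changes (-0.72, from 0.90), as did Prim1 at day 0 (0.10, from -0.42); Prim2 at day 0 ranged from -1.82 to 0.024 without 1 array, 0.024 without KO day 0 replicate 1. None of these was called. Signals mostly under the array median, such as those of Orc6 and Pole, limit what can be read from a member. Whether low expression or weak probes underlie such signals was not tested.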
